A study of Mus musculus with 12 samples.

Results

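The mitochondrial ribosomal protein genes were taken as every gene of the deposited comparison table whose symbol begins with Mrpl or Mrps, followed by a number and at most 1 letter, a choice that used no measured value. This gave 78 of 55401 genes, of which 26 encode proteins of the small subunit, 51 encode proteins of the large subunit and 1, Mrps36, is a subunit of neither. They were compared between TLCP and Tfh, which are CD4 T cell populations sorted by flow cytometry from spleens of C57BL/6 mice infected with the protozoan parasite Leishmania donovani and killed at day 21 of infection. TLCP are CD4 T cells that stain for LAG-3 and CXCR5 and are low to intermediate for PD-1 (PD-1lo/int), and Tfh are T follicular helper cells (CXCR5+ PD-1hi), mostly of germinal centers. Each population gave 6 libraries of poly(A)-selected RNA, the series text gives 6 mice, and all animals were infected, so the data hold no uninfected group. The sort enriched CD4 T cells on magnetic beads first, and both populations are defined by their surface staining, with no further allele or agent in the labels.

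The mitochondrial ribosome, or mitoribosome, makes the few respiratory chain proteins that are encoded in mitochondrial DNA. Its 2 ribosomal RNAs come from mitochondrial DNA too, 12S RNA (mt-Rnr1) in the small subunit and 16S RNA (mt-Rnr2) in the large one, whereas all of its proteins are encoded in the nucleus and imported. Some of those proteins descend from bacterial ribosomal proteins and others exist in mitochondria alone. T cells that are activated and divide enlarge their mitochondria and need newly made respiratory chain proteins.

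Most of these genes differed little between the populations. Relative to the other genes, 16 of the 77 genes that could be tested were lower in TLCP, led by Mrps6, 1 was higher (Mrpl37), and 60 did not pass the test. The test was edgeR's quasi-likelihood test on read counts with Benjamini-Hochberg adjustment over all 12015 genes tested and a threshold of 0.05, with library sizes scaled by trimmed mean of M values (TMM). The 16 lower genes were 20.8% of those tested, against 16.4% of all genes tested that were lower, and the 1 higher gene was 1.299%, against 16.8% of all genes tested that were higher. With this scaling the share of lower genes is near that of genes at large, and the share of higher genes is below it. The counts depend on the scaling: with library totals alone 4 genes were lower and 3 higher, and with limma on the authors' values as log2(TPM + 1) 1 was lower and 5 higher. No test of the family as a set was made.

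The promoters of 3 genes are printed because they belong to the gene with the largest difference (Mrps6), to a lower gene with matches to the ETS letters near its start (Mrpl58) and to the single higher gene (Mrpl37). Each is the window of 300 bases from 250 before to 50 after the start, on the strand of the gene, from RefSeq on GRCm38.p6. Capitals mark letters that match, on either strand, a motif searched in all windows: GCATGCGC for NRF1, CCGGAAG for ETS factors such as GABP, AAGATGGCG for YY1, the E-box CACGTG and the GC box GGGCGG. Matches of the GC box that overlap each other run together in the print.
Mrps6 (chr16:92058086-92058385, strand +): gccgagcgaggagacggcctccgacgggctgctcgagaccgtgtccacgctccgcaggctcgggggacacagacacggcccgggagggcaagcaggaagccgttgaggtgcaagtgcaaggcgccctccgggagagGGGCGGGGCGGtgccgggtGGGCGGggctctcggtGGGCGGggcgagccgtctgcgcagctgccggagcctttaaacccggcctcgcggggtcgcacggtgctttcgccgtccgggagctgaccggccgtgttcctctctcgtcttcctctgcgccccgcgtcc
Mrpl58 (chr11:115403502-115403801, strand +): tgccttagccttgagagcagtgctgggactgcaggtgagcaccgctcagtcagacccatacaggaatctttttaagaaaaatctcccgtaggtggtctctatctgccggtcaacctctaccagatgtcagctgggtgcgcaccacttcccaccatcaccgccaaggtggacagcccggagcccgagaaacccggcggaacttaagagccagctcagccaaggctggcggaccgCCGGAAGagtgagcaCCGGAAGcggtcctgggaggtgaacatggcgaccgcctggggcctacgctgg
Mrpl37 (chr4:107066817-107067116, strand -): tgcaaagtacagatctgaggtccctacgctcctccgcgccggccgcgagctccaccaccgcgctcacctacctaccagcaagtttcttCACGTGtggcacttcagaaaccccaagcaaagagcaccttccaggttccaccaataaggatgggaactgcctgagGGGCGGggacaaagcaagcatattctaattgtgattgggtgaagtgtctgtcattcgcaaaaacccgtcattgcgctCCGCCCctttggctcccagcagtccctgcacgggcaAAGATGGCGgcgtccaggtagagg
The Mrps6 window holds GC boxes and none of the other motifs, the Mrpl58 window holds the ETS letters and none of the others, and the Mrpl37 window holds the YY1 letters, the E-box and GC boxes.

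The libraries held 6939770 to 12688306 reads assigned to genes, of which 10337 to 21511 fell on the 78 genes. Lag3 and Pdcd1 (PD-1) differed in the direction of the gates. Lag3 was 140 to 234 CPM in TLCP and 28.8 to 58.6 CPM in Tfh. Pdcd1 was 32.5 to 44.3 CPM in TLCP and 266 to 346 CPM in Tfh. CPM is the read count relative to the TMM-scaled library size. Of the 4 sort markers Lag3 was higher in TLCP, and Pdcd1, Cxcr5 and Cd4 were lower. Cxcr5, a marker of both gates, had 2241 to 3216 reads in TLCP and 4570 to 10859 reads in Tfh. Ribosomal RNA genes held 18.7% to 29.6% of assigned reads in TLCP and 25.02% to 38.0% in Tfh. Transcripts used as markers of other cells also moved with the groups. Whether the sorted T cells made some of them was not tested. The 10 B cell markers summed to 740 to 3059 CPM in TLCP and 180 to 802 CPM in Tfh, with 9 of 10 higher in TLCP, and the 7 plasma cell markers summed to 717 to 3338 CPM in TLCP and 81.0 to 250 CPM in Tfh, with all 6 tested ones higher. The 5 basophil and mast cell markers summed to 23.3 to 91.4 CPM in TLCP and 0 to 6.69 CPM in Tfh. The 9 myeloid markers summed to 33.6 to 108 CPM in TLCP and 17.7 to 106 CPM in Tfh, with 2 of 7 tested ones higher, and no erythroid, platelet, CD8 or NK marker was higher. None of these markers was at 0 in every library, and 5 of the 6 T cell markers were lower in TLCP. The part of such RNA in the results on the mitoribosome was not tested. Without the 2 TLCP libraries that held most immunoglobulin reads, 11 of the 77 genes were lower and 0 higher. The family's median log2 fold change was then -0.195, against -0.167 with all libraries. Leaving out single libraries gave 9 (Tfh replicate 6) to 21 (TLCP replicate 6) lower genes. With all libraries but without immunoglobulin, B cell and plasma cell genes, 15 were lower and 1 higher. In bulk RNA, fewer cells of a type and less RNA per cell cannot be told apart.

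Over the 77 genes the median log2 fold change, TLCP minus Tfh, was -0.17, against -0.0041 over all genes tested. The quartiles of the family were -0.31 and -0.03, against -0.23 and 0.26 for all genes. The fold change was below 0 for 61 of the 77 genes, or 79.2%, against 50.6% of all genes. The sign of this median depends on the scaling. With library totals in place of TMM the median of the family was 0.015 and that of all genes 0.17, and on the authors' TPM values the 2 medians were 0.12 and 0.25. The family's median lay below that of all genes by 0.12 to 0.21 on the log2 scale in the main fit and all 28 alternatives. A change of scaling moves all genes by nearly the same amount, so this distance could hardly change between scalings. The other alternatives reuse the same libraries, so they are no separate support.

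**Figure D1:**
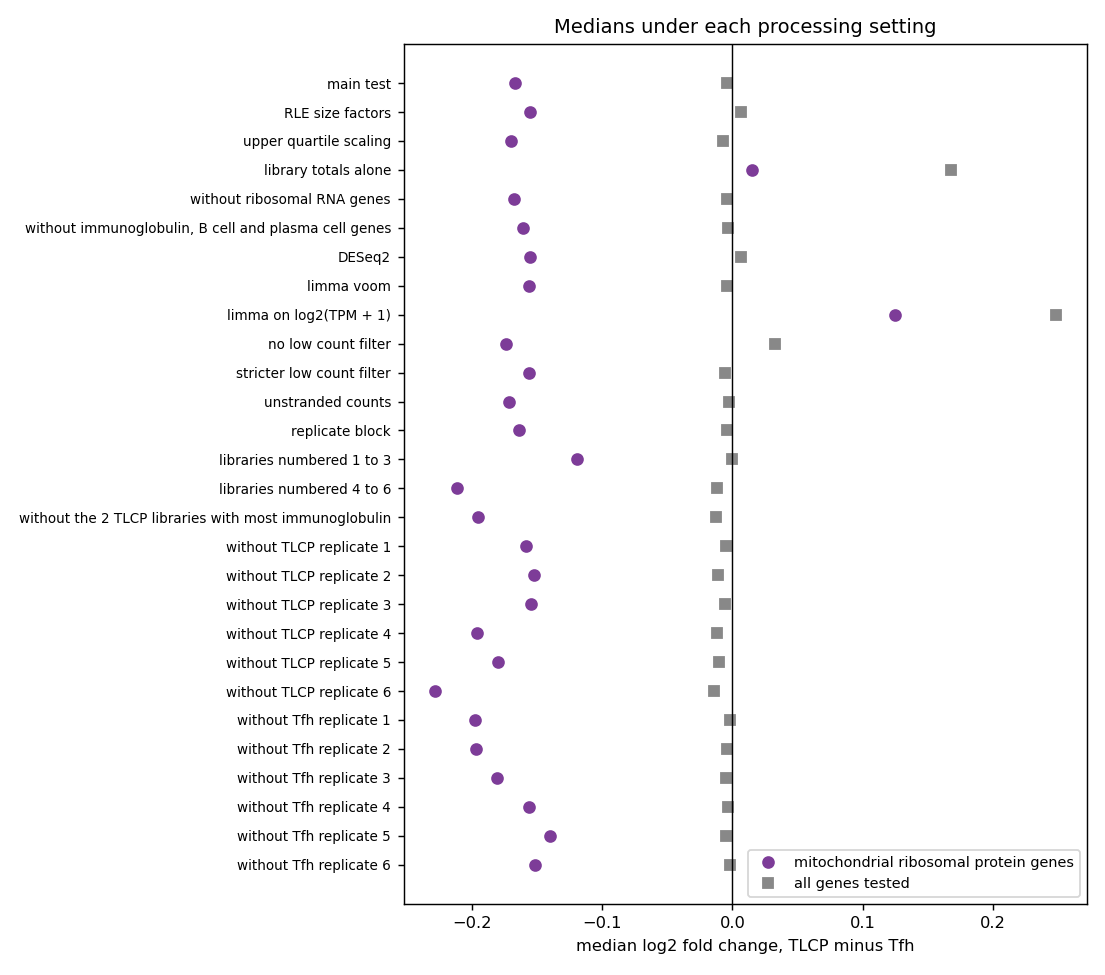
Median log2 fold change (TLCP minus Tfh) of the mitochondrial ribosomal protein genes (purple circles) and of all genes tested (grey squares) under each processing setting, one setting per row. The purple circle lies left of the grey square in every row, but both medians are above 0 with library totals alone (0.015 and 0.17) and on log2(TPM + 1) (0.12 and 0.25).

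Differences of the family were small. No member differed by more than 2-fold, whereas 10.9% of all genes tested did, and the largest fold was 1.75 (Mrps6). For 53 of the 77 genes, or 68.8%, the 95% interval of the fold change lay within 1.5-fold in both directions, against 51.4% of all genes. In 15 genes TLCP was below Tfh in all 6 pairs of libraries with the same number, and 11 of those 15 are among the 16 lower genes. The same count was not made over all genes, so it does not set the family apart from genes at large. Both counts come from the same libraries, so their overlap is no separate support.

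The summed level of the 78 genes gave no single direction. They took 0.140% to 0.173% of assigned reads in TLCP libraries and 0.139% to 0.170% in Tfh libraries, ranges that coincide. Outside ribosomal RNA genes the share was 0.191% to 0.212% in TLCP and 0.208% to 0.240% in Tfh, with a small overlap. As TMM-scaled CPM the sums were 1431 to 1542 in TLCP and 1518 to 1714 in Tfh, which also overlap. As deposited TPM they were 1385 to 1970 in TLCP and 1330 to 1844 in Tfh. The mean was therefore higher in TLCP on TPM (1654 ± 208, against 1544 ± 207 in Tfh) and lower in TLCP on TMM-scaled CPM (1459 ± 43.0, against 1631 ± 74.9 in Tfh; SD, n = 6 each), and ribosomal RNA reads, which TPM keeps in its total, moved with the groups.

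**Figure D2:**
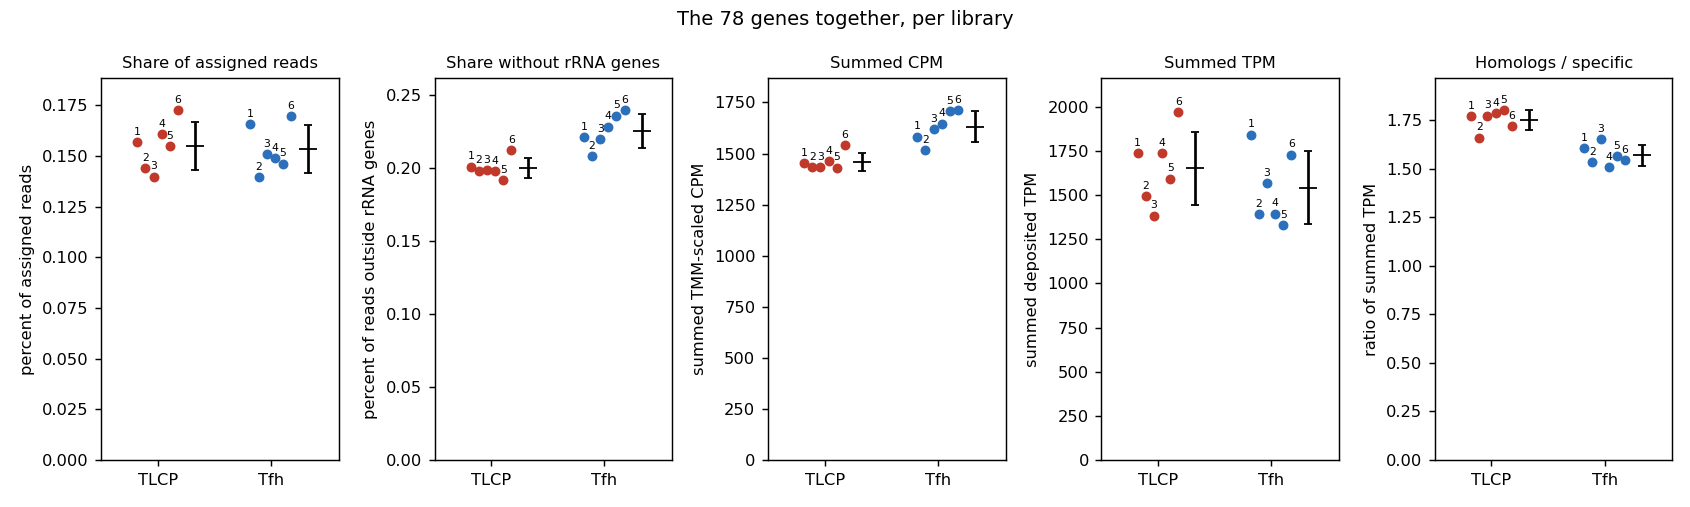
Summed level of the 78 genes in each library on 4 scales, and in the last panel the summed TPM of proteins with a bacterial homolog divided by that of mitochondria-specific proteins. Points are libraries with their number, bars are mean and SD over 6 libraries, all axes start at 0, TLCP stands left of Tfh. The share of assigned reads coincides between the groups (0.140% to 0.173% and 0.139% to 0.170%), while the ratio in the last panel is above 1.66 in each TLCP library and no higher than 1.66 in any Tfh library.

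Among small subunit genes 7 of 26 tested were lower and none was higher, against 16.4% lower and 16.8% higher among all genes tested. The median log2 fold change was -0.15. This median was 0.02 with library totals alone and 0.13 on TPM. Mrps6, whose protein is the homolog of bacterial S6, had 9.13, 11.1 and 15.2 CPM (lowest, median, highest) in TLCP and 18.6, 19.4 and 23.3 CPM in Tfh. All TLCP libraries were below all Tfh libraries. Its log2 fold change was -0.81 ± 0.13 (SE, 95% interval -1.08 to -0.54; adjusted p = 7.7e-05 by edgeR), and it was lower in all 28 alternatives, including -0.63 with library totals alone and -0.51 on TPM. The authors' deposited table gives -0.80 for it.

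Mrps6 lies at chr16:92058270-92112227 (GRCm38, plus strand). Its exons overlap those of the sodium and inositol cotransporter gene Slc5a3 on the same strand, and 19.9% of its exonic bases are shared with Slc5a3 or the unnamed model Gm49711. STAR's gene counts leave out reads that fall on more than 1 gene, so its values rest on the rest of the transcript. Slc5a3 averaged 38.2 ± 9.64 CPM in TLCP and 53.0 ± 5.06 CPM in Tfh (SD, n = 6 each), with a log2 fold change of -0.47 (adjusted p = 0.0188 by edgeR). The effect of the shared bases on either value was not tested.

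Mrps33, a mitochondria-specific protein, had 4.604, 6.66 and 7.45 CPM in TLCP and 7.52, 9.12 and 14.6 CPM in Tfh. The groups did not overlap, but the highest TLCP and lowest Tfh library nearly met. The log2 fold change was -0.61 ± 0.20 (adjusted p = 0.0236 by edgeR). The call was lost without TLCP replicate 1 or Tfh replicate 4, the library with 14.6 CPM, where the log2 fold change was -0.53 and -0.46. The call was also lost with library totals alone (-0.44, adjusted p = 0.0976 by edgeR) and on log2(TPM + 1) (-0.28, adjusted p = 0.17 by limma). In libraries 1 to 3 it was lost as well (-0.36, adjusted p = 0.32 by edgeR).

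Mrps5 is the homolog of bacterial S5, a protein at the messenger RNA entry site that affects decoding accuracy. It had 21.3, 24.1 and 26.7 CPM in TLCP and 27.6, 29.6 and 35.8 CPM in Tfh. No TLCP library reached any Tfh library, and the log2 fold change was -0.34 ± 0.09 (adjusted p = 0.0079 by edgeR). Mrps27, a pentatricopeptide repeat protein that in human cells binds 12S RNA, had 7.91, 10.3 and 10.6 CPM in TLCP and 11.0015, 12.4 and 16.5 CPM in Tfh. Its groups did not overlap either, with a log2 fold change of -0.38 ± 0.14 (adjusted p = 0.0451 by edgeR, and 0.0514 with the replicate number as a block). The genes whose groups did not overlap with TLCP below were 5, namely Mrps6, Mrps33, Mrps5, Mrps27 and Mrpl58, or 6.49% of the 77, against 8.86% of all genes tested.

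Mrps23 (mitochondria-specific), Mrps2 (homolog of bacterial S2) and Mrps31 (mitochondria-specific) were lower with log2 fold changes of -0.41, -0.33 and -0.34. Mrps23 had 28.1, 31.1 and 40.0 CPM in TLCP and 33.2, 41.6 and 58.4 CPM in Tfh, and Mrps2 had 17.0, 20.2 and 25.6 CPM in TLCP and 22.8, 25.5 and 29.6 CPM in Tfh. Both pairs of groups overlap. Mrps12 and Mrps7, the homologs of the bacterial decoding protein S12 and of the head protein S7, did not pass the test. Mrps12 had 5.40, 6.35 and 8.22 CPM in TLCP and 3.98, 7.62 and 11.9 CPM in Tfh, and Mrps7 had 16.9, 21.9 and 23.6 CPM in TLCP and 16.3, 19.4 and 22.5 CPM in Tfh. Mrps34, which is needed for a stable small subunit in mice, had 11.3, 14.6 and 17.0 CPM in TLCP against 14.3, 18.04 and 20.4 CPM in Tfh (log2 fold change -0.30, adjusted p = 0.11 by edgeR). Mrps34 shares 37.0% of its exonic bases with Nme3 on the same strand.

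**Figure D3:**
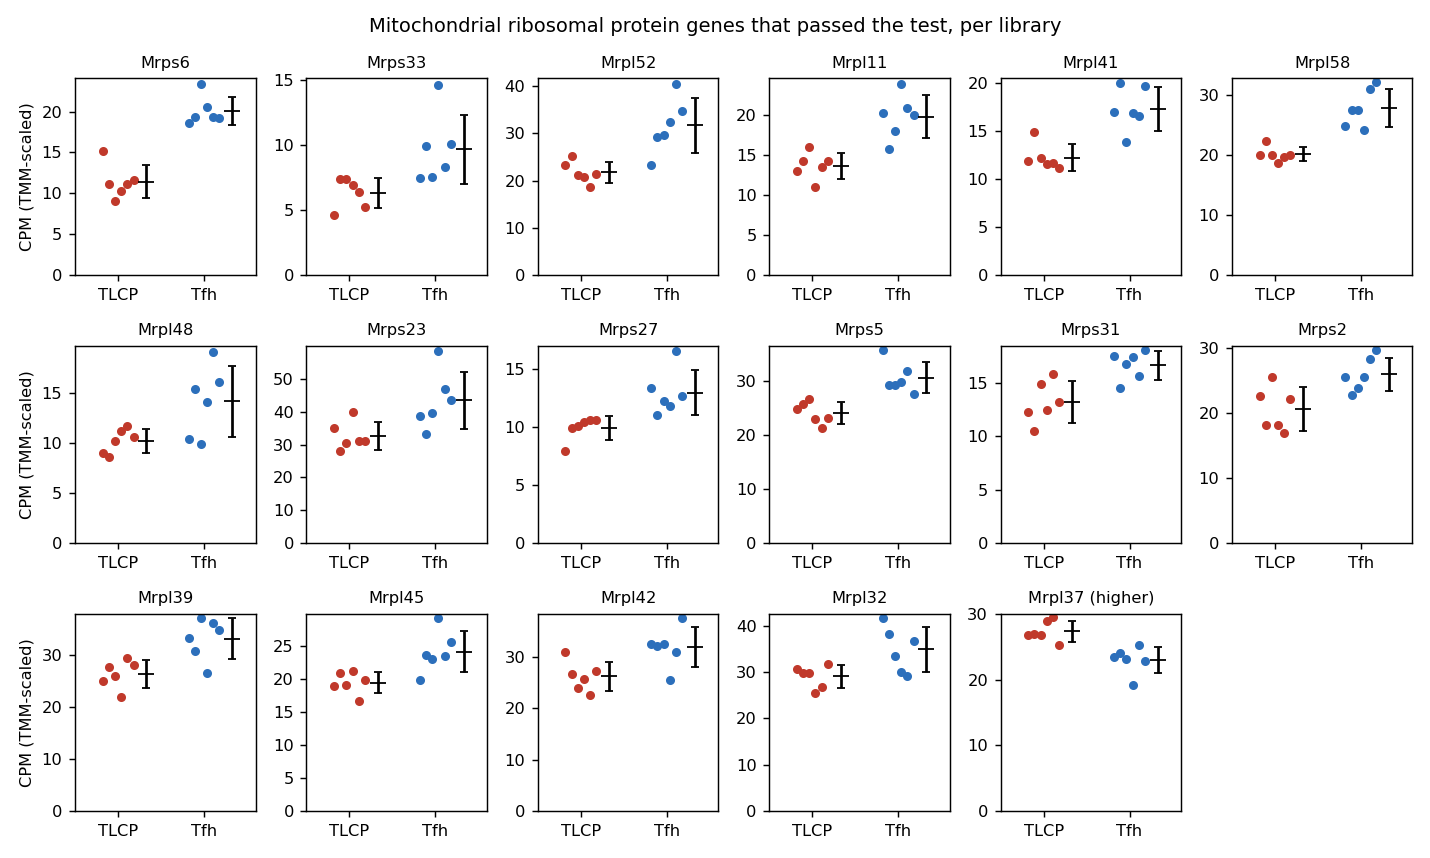
TMM-scaled CPM of the 16 genes lower in TLCP and of Mrpl37, the single higher one. Each point is 1 library, bars are mean and SD over 6 libraries, each axis starts at 0, and TLCP stands left of Tfh. Mrps6, with at most 15.2 CPM in TLCP and at least 18.6 CPM in Tfh, has the widest gap, and with library totals alone 4 of the 16 genes stay lower.

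Among large subunit genes 9 of 50 tested were lower and 1 was higher, against 16.4% lower and 16.8% higher among all genes tested. Their median log2 fold change was -0.16 (0.01 with library totals alone, 0.11 on TPM). Mrpl58, a peptidyl-tRNA hydrolase that releases stalled chains in human mitochondria, had 18.7, 20.03 and 22.3 CPM in TLCP and 24.2, 27.4 and 32.0 CPM in Tfh. Every TLCP library lay below every Tfh library. The log2 fold change was -0.47 ± 0.10 (adjusted p = 0.0010 by edgeR), and -0.30 with library totals alone (adjusted p = 0.0458).

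Mrpl11 is the homolog of bacterial L11, which sits at the base of the stalk where translation factors bind. It had 11.03, 13.9 and 15.98 CPM in TLCP and 15.8, 20.1 and 23.9 CPM in Tfh, with 5 of 6 TLCP libraries below all Tfh libraries. The log2 fold change was -0.53 ± 0.13 (adjusted p = 0.0027 by edgeR). Mrpl52, a mitochondria-specific protein, had 18.7, 21.2 and 25.1 CPM in TLCP and 23.4, 31.1 and 40.5 CPM in Tfh, overlapping groups with a log2 fold change of -0.54 ± 0.12 (adjusted p = 0.0015 by edgeR). With library totals alone Mrpl11 and Mrpl52 were also lower, with log2 fold changes of -0.36 each, so that Mrps6, Mrpl58, Mrpl11 and Mrpl52 make up all 4 genes lower on that scale.

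Mrpl41, also mitochondria-specific, had 11.1, 11.8 and 14.9 CPM in TLCP and 13.8, 16.9 and 19.97 CPM in Tfh. Only TLCP replicate 2 reached into the Tfh range, and the log2 fold change was -0.50 ± 0.13 (adjusted p = 0.0048 by edgeR). Mrpl39, mitochondria-specific too, had 22.1, 26.9 and 29.4 CPM in TLCP and 26.6, 34.1 and 37.2 CPM in Tfh, with a log2 fold change of -0.33 ± 0.10 (adjusted p = 0.0151 by edgeR). The other lower genes were Mrpl48, Mrpl45, which in human mitochondria lies where the ribosome docks on the inner membrane, Mrpl42 and Mrpl32, with log2 fold changes of -0.47, -0.31, -0.29 and -0.27. Mrpl42 and Mrpl32 stood at 0.0058 and 0.028 on log2(TPM + 1), where neither passed the test. The calls differ in how well they stood: Mrps6 was lower in all 28 alternatives and Mrpl11, Mrpl52 and Mrpl58 in 26 each, but Mrps27 in 13, Mrps31 in 12 and Mrpl32 in 10.

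Mrpl37, a mitochondria-specific protein of the large subunit, had 25.3, 27.0 and 29.5 CPM in TLCP and 19.3, 23.3 and 25.3 CPM in Tfh. The TLCP libraries lay above all Tfh libraries, though the lowest TLCP library, at 25.2890 CPM, and the highest Tfh library, at 25.2886 CPM, are as good as equal. Its log2 fold change was 0.25 ± 0.09 (adjusted p = 0.0419 by edgeR). With the replicate number as a block the adjusted p was 0.0573, and the call was also lost in 10 of the 12 fits that left out 1 library, where the log2 fold change stayed between 0.20 and 0.28. With library totals alone it was 0.42 (adjusted p = 0.0049 by edgeR) and on TPM 0.50 (adjusted p = 0.0094 by limma).

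The genes with the highest fold changes were Mrpl23, Mrpl4 and Mrps28, and none passed the test. Mrpl23, homolog of a bacterial protein at the exit tunnel, had 0.72, 1.804 and 4.10 CPM in TLCP and 0.12, 1.93 and 2.83 CPM in Tfh, with a log2 fold change of 0.43 whose 95% interval ran from -0.74 to 1.603. Mrpl4 had 12.3, 15.9 and 21.3 CPM in TLCP against 9.87, 12.7 and 14.0 CPM in Tfh (log2 fold change 0.36, adjusted p = 0.0759 by edgeR). Mrps28 had 3.47, 4.497 and 6.58 CPM in TLCP against 2.75, 3.99 and 4.86 CPM in Tfh (log2 fold change 0.30, adjusted p = 0.37 by edgeR). Mrpl4 passed the test with library totals alone, together with Mrpl24 and Mrpl37, and on TPM, together with Mrpl24, Mrpl30, Mrpl37 and Mrps28.

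Other large subunit genes of known role did not pass the test. Mrpl12, the stalk protein that also binds the mitochondrial RNA polymerase, had 16.3, 18.2 and 23.9 CPM in TLCP and 13.5, 18.6 and 22.8 CPM in Tfh. Mrpl10, which anchors the stalk, had 22.4, 27.8 and 30.1 CPM in TLCP against 26.7, 33.5 and 37.6 CPM in Tfh (log2 fold change -0.26, adjusted p = 0.0527 by edgeR). Mrpl3, homolog of a bacterial protein that reaches toward the peptidyl transferase center, had 36.0, 38.2 and 41.3 CPM in TLCP against 39.7, 44.5 and 48.0 CPM in Tfh (log2 fold change -0.20, adjusted p = 0.0536 by edgeR). These 2 genes lie just outside the threshold. In all, 15 genes had an adjusted p between 0.05 and 0.15, and 13 of them had a negative fold change. No such count was made over all genes tested, so it adds no result about the family. Signs also depend on the scaling: 25 family genes changed sign with library totals alone and 38 on log2(TPM + 1). Mrpl44, which carries a ribonuclease III-like domain, had 10.3, 14.5 and 17.3 CPM in TLCP and 14.7, 17.7 and 20.3 CPM in Tfh (adjusted p = 0.0868 by edgeR). Mrpl33, the homolog of bacterial L33, had 16.2, 18.9 and 24.4 CPM in TLCP and 16.2, 17.3 and 22.1 CPM in Tfh. The ranges of Mrpl33 and Mrpl12 overlap almost entirely.

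The 3 Mrps18 genes encode related proteins with different places in the ribosome: Mrps18c and Mrps18b in the small subunit, Mrps18a in the large one. Mrps18c had 9.72, 11.5 and 16.04 CPM in TLCP and 7.01, 11.2 and 15.4 CPM in Tfh. Mrps18b had 4.29, 7.53 and 9.03 CPM in TLCP and 6.02, 6.85 and 10.51 CPM in Tfh, and Mrps18a had 13.7, 15.5 and 19.2 CPM in TLCP and 7.96, 15.1 and 17.5 CPM in Tfh. None of them passed the test, with log2 fold changes of 0.09, 0.03 and 0.17. Mrps30, named as a small subunit protein but part of the large subunit, had 26.8, 32.6 and 35.0 CPM in TLCP and 29.6, 32.2 and 34.6 CPM in Tfh. Its log2 fold change was -0.0029 with a 95% interval of -0.19 to 0.18. Mrps36, a subunit of the 2-oxoglutarate dehydrogenase complex and not of the ribosome, had 3.59, 4.45 and 5.31 CPM in TLCP and 2.39, 5.23 and 7.81 CPM in Tfh, also without passing the test.

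**Figure D4:**
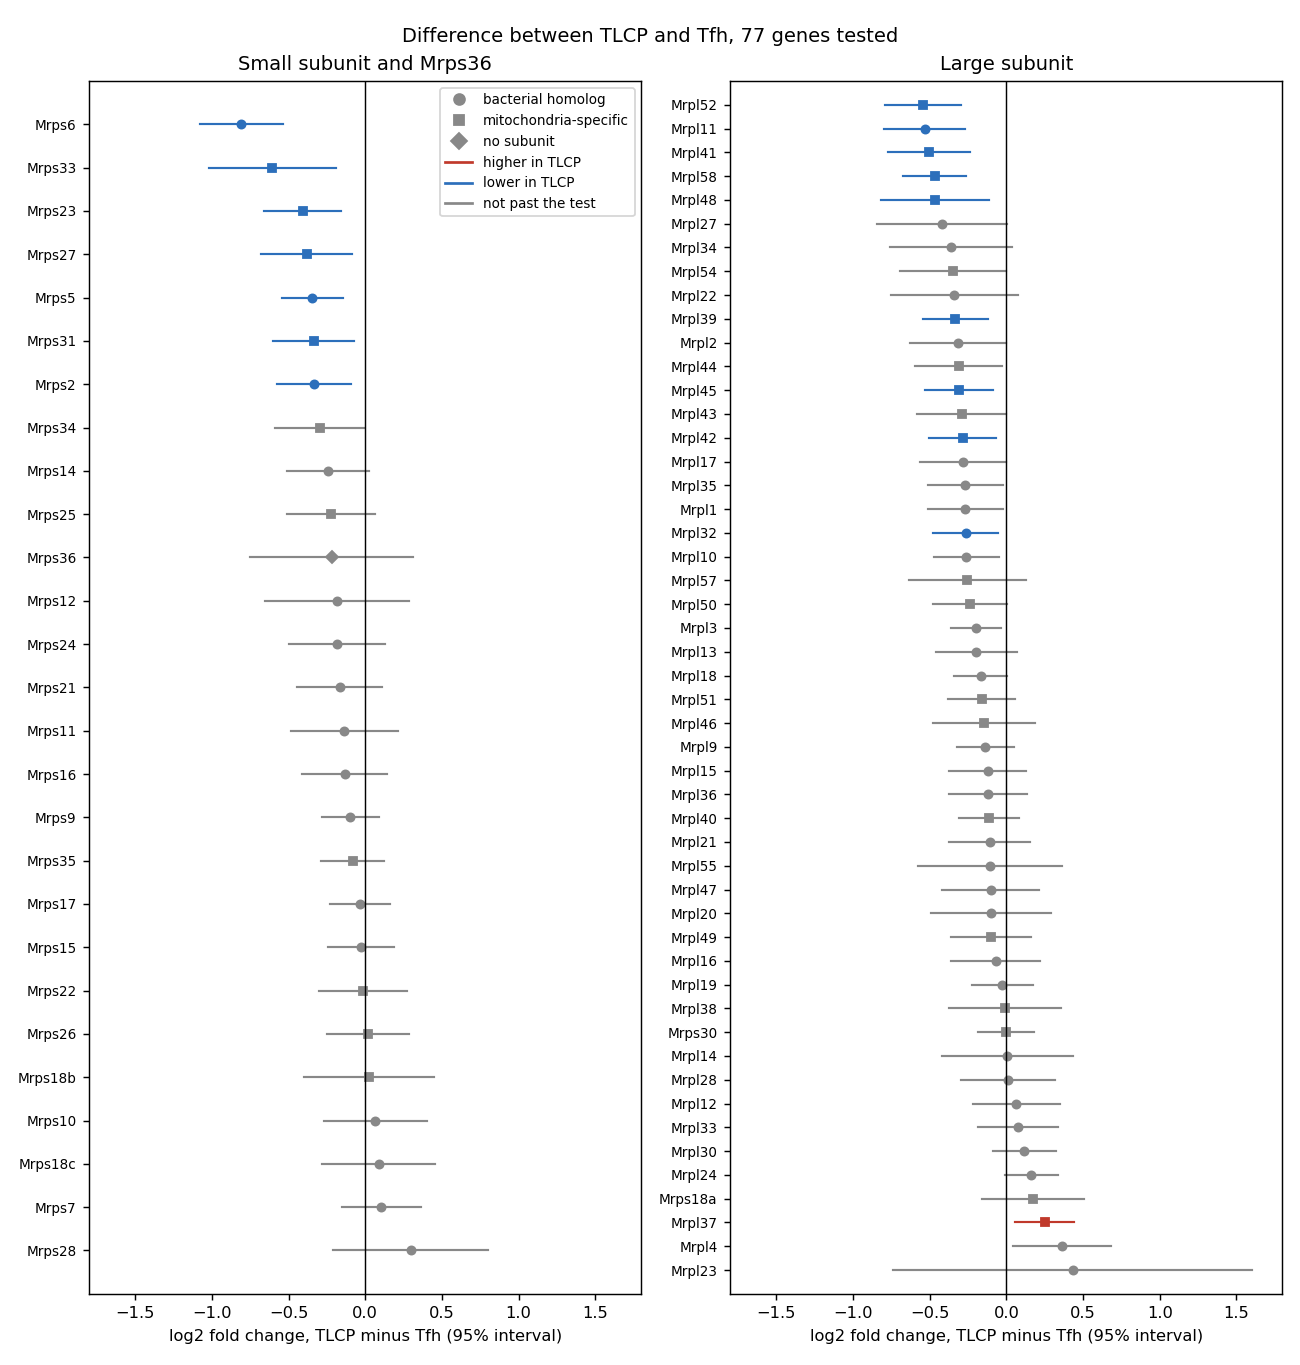
Log2 fold change (TLCP minus Tfh) of the 77 genes tested with 95% intervals, small subunit genes and Mrps36 on the left, large subunit genes on the right. Color marks the 16 lower genes and Mrpl37, the higher one, and shapes mark bacterial homologs and mitochondria-specific proteins. The values run from -0.81 (Mrps6) to 0.43 (Mrpl23), and with library totals alone their median is 0.015 in place of -0.17.

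By origin, 5 of 46 proteins with a bacterial homolog were lower and none higher, with a median log2 fold change of -0.13, whereas of 30 tested mitochondria-specific proteins 11 were lower and 1 was higher, with a median of -0.27, against 16.4% of all genes tested that were lower and 16.8% that were higher. The contrast in counts was not seen on the other scales: with library totals alone 2 homologs were lower and 2 higher, and 2 mitochondria-specific genes were lower and 1 higher. On log2(TPM + 1) 1 of 45 homologs tested was lower and 4 were higher, and of the mitochondria-specific genes none was lower and 1 was higher. The medians were 0.05 and -0.10 with library totals alone and 0.14 and 0.02 on TPM. The homologs stood above the mitochondria-specific genes on each scale. A change of scaling moves both groups by nearly the same amount, so this order could hardly change and is no separate support. Because a ratio of 2 sums within a library does not depend on the scaling, it was computed per library. The summed TPM of the homologs divided by that of the mitochondria-specific genes was 1.66, 1.77 and 1.803 (lowest, median, highest) in TLCP and 1.51, 1.56 and 1.66 in Tfh. All 6 TLCP libraries were above all 6 Tfh libraries, with the lowest TLCP value (1.661) close to the highest Tfh value (1.656). On summed reads the ratio was 1.71 to 1.81 in TLCP and 1.599 to 1.69 in Tfh. The ratio of the small to the large subunit, by contrast, was 0.415 to 0.437 in TLCP and 0.421 to 0.446 in Tfh on TPM, which overlap. These ratios are descriptions without a test.

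Levels per length spanned 2 orders of magnitude. The mean over both groups ran from 0.961 TPM (Mrpl23) to 96.3 TPM (Mrpl18), with a median of 15.8 TPM and quartiles of 10.9 and 26.0 TPM. Mrpl18, whose protein descends from the bacterial 5S RNA binder L18, averaged 100 ± 12.1 TPM in TLCP and 92.3 ± 13.4 TPM in Tfh. Mrps21 averaged 77.4 ± 22.0 TPM in TLCP and 70.4 ± 11.9 TPM in Tfh, and Mrpl24 averaged 80.8 ± 9.87 TPM in TLCP and 59.7 ± 9.30 TPM in Tfh (SD, n = 6 each). Compared with each other, the genes Mrps21 and Mrpl24 do not differ in level beyond their spread. Between the populations, Mrpl24 did not pass the main test (adjusted p = 0.14 by edgeR). It was higher in TLCP on log2(TPM + 1) (log2 fold change 0.44, adjusted p = 0.0171 by limma) and with library totals alone (0.33, adjusted p = 0.0083 by edgeR). At the low end stood Mrpl48 with 3.28 ± 0.54 TPM in TLCP and 3.66 ± 0.67 TPM in Tfh, Mrps10 with 3.64 ± 0.94 TPM in TLCP and 2.82 ± 0.22 TPM in Tfh, and Mrpl23 with 1.17 ± 0.72 TPM in TLCP and 0.75 ± 0.59 TPM in Tfh. The order of the genes was nearly the same in both populations. The Spearman coefficient between the group means was 0.97 over the 77 genes and 0.95 over 11673 of all genes tested. These means share libraries and gene lengths.

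**Figure D5:**
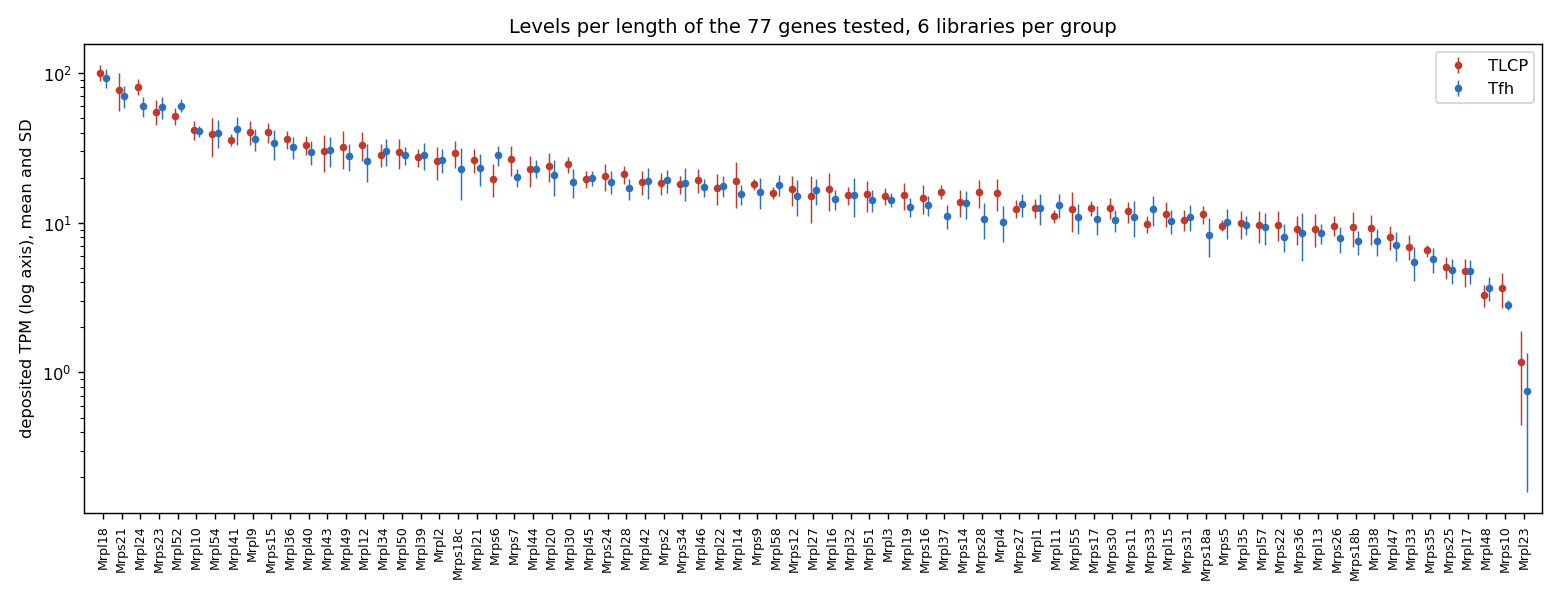
Deposited TPM of the 77 genes tested, in order of mean level, on a log axis. Points are means and bars SDs over 6 libraries, TLCP red and left, Tfh blue and right. Levels fall from 96.3 TPM (Mrpl18) to 0.961 TPM (Mrpl23) on average and the 2 populations keep close together.

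Mrpl53 had 0 reads in all 12 libraries. A count of 0 allows up to 0.236 to 0.432 CPM, depending on the library, for counting error only. Of its exonic bases 88.0% are shared on the same strand with the gene model Gm42688, which averaged 2.60 ± 0.93 CPM in TLCP and 3.50 ± 1.21 CPM in Tfh (SD, n = 6 each) and did not pass the test. Reads on shared bases are counted for neither gene. Mrpl53 was therefore not measurable here, and 8 of the 78 genes in all share exonic bases with another gene on their strand. Annotated pseudogenes of the family held at most 3 reads in any library.

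The 78 genes lie on 17 chromosomes. A protein-coding gene starts head to head within 1000 bases of the start of 33 of them, or 42.3%, against 17.8% of 10376 protein-coding genes tested. Of the 30 such partners tested, 3 were higher, 4 lower and 23 not past the test, against 16.8% of all genes tested that were higher and 16.4% that were lower. All 7 are named here after their values were seen. Ndufs6, a subunit of respiratory complex I that starts opposite Mrpl36, was lower with a log2 fold change of -0.65 (adjusted p = 5.5e-06 by edgeR), while Mrpl36 itself stood at -0.12 without passing the test. Pnpla7, opposite Mrpl41, was higher with a log2 fold change of 0.45 (adjusted p = 0.0022 by edgeR), whereas Mrpl41 was lower. Psma2, a proteasome subunit opposite Mrpl32, was lower with a log2 fold change of -0.20 (adjusted p = 0.0201 by edgeR), and Mrpl32 was lower too. Wdfy1, opposite Mrpl44, was lower at -0.61, and Ndufb5, opposite Mrpl47, was lower at -0.33. Gga3, opposite Mrps7, was higher at 0.33, and Mtbp, opposite Mrpl13, was higher at 0.37. The family genes opposite these last 4 did not pass the test. Mrpl46 and Mrps11 are each other's partners, with log2 fold changes of -0.14 each.

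Promoter windows were held by the RefSeq table for 69 of the 78 genes. The ETS letters CCGGAAG were found in 37.7% of them, against 22.1% of 8943 tested genes and 9.93% of 27025 genes with a window. The NRF1 letters were in 11.6%, against 6.33% of tested genes and 3.05% of all, and the YY1 letters in 11.6%, against 3.92% and 1.64%. The E-box was in 7.25% of the family's windows, against 12.02% of tested genes and 8.09% of all, and the GC box in 49.3%, against 69.0% and 38.2%. All 16 lower genes had a window, of which 6 held the ETS letters, 2 the NRF1 letters, 2 the YY1 letters, 6 the GC box and 0 the E-box. A match is a description of the letters and not a binding site.

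Both mitochondrial ribosomal RNAs were lower in TLCP. mt-Rnr1 was 16202 to 23399 CPM in TLCP and 25626 to 33036 CPM in Tfh, with a log2 fold change of -0.56 ± 0.09 (adjusted p = 7.5e-05 by edgeR). mt-Rnr2 was 23620 to 32304 CPM in TLCP and 39911 to 50338 CPM in Tfh, with a log2 fold change of -0.67 ± 0.08 (adjusted p = 4.7e-06 by edgeR). Neither pair of groups overlapped, and the 2 RNAs were also lower with library totals alone, but neither passed the test on log2(TPM + 1), where their median was -0.33. Poly(A) selection is known to capture such RNAs unevenly.

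Of the 5 mitoribosome proteins with other names, 2 were lower and none higher, against 16.4% lower and 16.8% higher among all genes tested. Dap3, a GTP-binding protein of the small subunit, had 44.6, 46.1 and 56.0 CPM in TLCP and 55.1, 62.0 and 67.0 CPM in Tfh, with a log2 fold change of -0.36 ± 0.08 (adjusted p = 0.0013 by edgeR). Chchd1 had 18.4, 20.9 and 22.1 CPM in TLCP and 23.6, 25.5 and 30.9 CPM in Tfh, with a log2 fold change of -0.37 ± 0.10 (adjusted p = 0.0069 by edgeR). The groups of Chchd1 did not overlap and those of Dap3 met at 1 TLCP library. Aurkaip1, Ptcd3 and Gadd45gip1 did not pass the test, at -0.15, 0.14 and 0.25. With library totals alone, 2 of these 5 genes were higher and none was lower.

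Of 30 genes for assembly of the mitoribosome, 4 (13.3%) were higher and none lower, against 16.8% higher and 16.4% lower among all genes tested. The share of higher genes is thus below that of genes at large. The median log2 fold change was 0.09, against -0.0041 over all genes tested. Mettl17, a methyltransferase-like factor of small subunit assembly, averaged 22.6 ± 2.74 CPM in TLCP against 14.7 ± 2.63 CPM in Tfh (log2 fold change 0.62, adjusted p = 0.0011 by edgeR). Dhx30, an RNA helicase, averaged 48.3 ± 1.69 CPM in TLCP against 39.2 ± 3.14 CPM in Tfh (log2 fold change 0.30, adjusted p = 0.0046 by edgeR). Nsun4, a ribosomal RNA methyltransferase, averaged 15.5 ± 1.83 CPM in TLCP against 11.9 ± 1.24 CPM in Tfh (log2 fold change 0.37, adjusted p = 0.0310 by edgeR). The fourth was Mrm1, also a ribosomal RNA methyltransferase, at 0.45, named after its values were seen. On TPM 7 of the 30 were higher and none lower, and with the replicate number as a block 5 were higher and none lower.

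None of 16 translation factor genes passed edgeR's test, against 33.2% of all genes tested that did. An unadjusted p under 0.05 was found for 1 of the 16. With library totals alone and on TPM 1 was higher, and with DESeq2 none was called. Those with the smallest p were Mtfmt, which formylates the initiator tRNA, with 18.7 ± 2.58 CPM in TLCP and 15.3 ± 2.04 CPM in Tfh, Slirp, with 13.7 ± 1.54 CPM in TLCP and 16.6 ± 2.88 CPM in Tfh, and the elongation factor Gfm1, with 36.2 ± 3.899 CPM in TLCP and 40.3 ± 4.52 CPM in Tfh (SD, n = 6 each). Of 17 mitochondrial tRNA synthetases 2 (11.8%) were higher and none lower, against 16.8% higher and 16.4% lower among all genes tested. Mars2 had 23.1 ± 4.35 CPM in TLCP against 13.7 ± 2.46 CPM in Tfh (log2 fold change 0.75, adjusted p = 0.00052 by edgeR). Tars2 had 38.9 ± 3.75 CPM in TLCP against 26.4 ± 3.51 CPM in Tfh (log2 fold change 0.56, adjusted p = 0.00024 by edgeR). Lars2 stood far above the other synthetases, at 4392 to 13249 CPM in TLCP and 6777 to 20053 CPM in Tfh, without passing the test. The ribosomal RNA gene CT010467.1 moved with it across libraries. Lars2 was highest among TLCP in replicate 3 and among Tfh in replicate 5, where CT010467.1 was also at its highest for the group, at 247192 CPM in TLCP and 360664 CPM in Tfh. Lars2 was lowest among TLCP in replicate 4 and among Tfh in replicate 1, where CT010467.1 stood at 117865 CPM in TLCP and 158061 CPM in Tfh. The part of ribosomal RNA reads in the Lars2 values was not tested.

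Of 9 genes for mitochondrial DNA transcription and upkeep, 1 was lower and none higher, against 16.4% lower and 16.8% higher among all genes tested. Tfam, which packages mitochondrial DNA and starts its transcription, averaged 71.8 ± 7.49 CPM in TLCP and 84.2 ± 9.22 CPM in Tfh (SD, n = 6 each; log2 fold change -0.23, adjusted p = 0.0450 by edgeR), a difference of 0.056 in the other direction on log2(TPM + 1). Polrmt, the mitochondrial RNA polymerase, and Tefm, its elongation factor, did not pass the test, at 0.20 and -0.39. Of 10 tested regulators of nuclear genes for mitochondria, 3 were higher and 2 lower, against 16.8% higher and 16.4% lower among all genes tested. Myc averaged 42.5 ± 5.46 CPM in TLCP and 23.1 ± 4.37 CPM in Tfh, without overlap (log2 fold change 0.89, adjusted p = 1.3e-05 by edgeR). Pprc1, a coactivator of the PGC-1 family, averaged 33.6 ± 3.91 CPM in TLCP against 24.7 ± 4.82 CPM in Tfh (log2 fold change 0.44, adjusted p = 0.0079 by edgeR). Yy1 averaged 141 ± 4.64 CPM in TLCP and 168 ± 6.97 CPM in Tfh, without overlap (log2 fold change -0.25, adjusted p = 0.0015 by edgeR), but the log2 fold change of Yy1 was 0.038 on log2(TPM + 1). Esrra, a nuclear receptor, was higher at 0.48, and Gabpa, the ETS factor of the search above, was lower at -0.22, both named after their values were seen. With the replicate number as a block 4 of the 10 regulators were higher and 2 lower, with library totals alone 4 were higher and none lower, and none of the 9 transcription genes was called on that scale or with DESeq2.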

How the data were processed

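Read counts per gene of 12 libraries were deposited by the authors, made with STAR 2.7.1a on GRCm38 per the submitters' processing notes. Columns hold unstranded, same-strand and opposite-strand counts, and the same-strand counts were used here because opposite-strand reads were 2.83% to 4.19% of both strands. Rows that name no gene were left out of library sizes and held 44.9% to 56.4% of reads. The authors also deposited TPM, and a table from DESeq2 1.30.1 with counts divided by size factors (a signal), log2 fold changes with other spread values, a score (Wald statistic) and p-values. That deposited table calls 13 family members lower and 1 higher. The whole reads behind its signal equal the deposited counts for 100% of values, within 0.01 reads.

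Counts were filtered with filterByExpr and tested with edgeR 4.0.16 in R 4.3.3 (TMM, robust quasi-likelihood, two-sided). limma 3.58.1 and DESeq2 1.42.0 served as alternatives, limma on log2(TPM + 1) of genes with at least 1 TPM in 6 libraries. The steps were tested on simulated data with 200 genes changed. Libraries with the same number deviated together in all 6 pairs (correlations of 0.127 to 0.318), and 9 of 12 libraries correlated best with their own number. Between TLCP and Tfh libraries with different numbers the correlation reached 0.209, above that of pairs 3 (0.137) and 4 (0.127). Whether the numbers pair the samples is therefore not settled. The main fit did not use them, and a fit with the number as a block was an alternative. Nothing in the labels names the animal of each library, so p-values measure the spread between these libraries. Gene positions are from GENCODE M21, in which the spans of all 78 genes equal those of the deposited table, and promoter sequences are from RefSeq on GRCm38.p6. Subunits and origins follow the usual mitoribosome nomenclature.

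The genes and lists were chosen with earlier results of these data known. Genes named with values were the 10 with the smallest p, the 3 with the highest and 3 with the lowest fold change, the 3 highest and 3 lowest in TPM, genes fixed by role, every member called against the larger direction, untested members, and the genes with the smallest p in other lists; lower members outside these are given by their fold change. Members of the same list share libraries and are not replicates. Alternatives were other scalings, tests, filters and strand counting, the block, libraries 1 to 3 and 4 to 6, and leaving out libraries. Recovered reads were added after seeing the data.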

Additional observations from a re-analysis of the deposited data

Results flagged for a closer look

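In groups of 6 libraries, 13 of the 146 groups examined had a highest or lowest library set apart from the nearest other by more than Dixon's 95% critical value for their gap over the whole range. Chance gives this in about 1 in 20 groups.

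Among the ribosomal protein genes of TLCP, replicate 2 was high for Mrpl41 (14.9 CPM, others 11.1 to 12.1), replicate 1 was high for Mrps10 (16.01 CPM, others 9.19 to 11.3) and low for Mrps27 (7.91 CPM, others 9.90 to 10.6), and replicate 4 was high for Mrpl18 (59.6 CPM, others 50.4 to 53.7) and low for Mrps18b (4.29 CPM, others 7.31 to 9.03). In Tfh, replicate 4 was high for Mrps33 (14.6 CPM, others 7.52 to 10.1) and for Mrps18b (10.51 CPM, others 6.02 to 7.38). The summed CPM of the family was high in TLCP replicate 6 (1542, others 1431 to 1463).

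Among other genes, TLCP replicate 6 was low for Nsun4 (11.9 CPM, others 15.4 to 17.2), TLCP replicate 1 was low for mt-Rnr2 (23620 CPM, others 29123 to 32304), and Tfh replicate 4 was high for Gfm1 (49.2 CPM, others 37.0 to 39.9). Cd8a, which CD4 T cells should lack, was high in replicate 6 of both populations (9.48 CPM in TLCP with the others at 1.081 to 4.09, and 2.79 CPM in Tfh with the others at 0 to 0.957).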

How the results depend on the processing

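With library totals alone 3 family genes were higher and 4 lower, the median log2 fold change was 0.015, and the share of higher genes among all called genes was 78.2%, against 50.6% with TMM. With limma on log2(TPM + 1) 5 were higher and 1 lower, the median was 0.12 and that share was 87.1%. These scales differ from TMM by construction, and the median of all genes moved with them, by 0.17 and 0.25. On log2(TPM + 1) the log2 fold change of Mrpl42 was 0.0058, the log2 fold change of Mrpl32 was 0.028, the log2 fold change of Tfam was 0.056 and the log2 fold change of Yy1 was 0.038, none past the test there. Uncalled changes of sign are not counted as reversals: 25 family genes changed sign with totals alone, and 38 on TPM.

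With the replicate block 0 family genes were higher and 15 lower. Mrpl37 and Mrps27 lost their calls, and the block changed no other call of the family. Of assembly genes 5 in place of 4 were higher with the block, and of regulators 4 in place of 3. Libraries 1 to 3 gave 0 higher and 6 lower, libraries 4 to 6 gave 0 and 9, no filter on low counts gave 0 and 11, and leaving out the 2 TLCP libraries with most immunoglobulin gave 0 and 11. Leaving out each library in turn gave 0 to 1 higher and 9 to 21 lower, with 9 without Tfh replicate 6, 10 without TLCP replicate 1 and 21 without TLCP replicate 6. The cause was not tested. Other scalings, DESeq2, voom, the stricter filter and unstranded counts gave 13 to 18 lower and 1 higher.

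Depth limits mainly Mrpl23, Mrps36 and Mrps28, the tested family genes with the lowest mean CPM. Intervals and floors cover counting error only.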
